A study of Mus musculus with 2 samples.

Results

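The barcodes described here are those of 500 or more unique molecular identifiers (UMIs) in which more than 50% of the UMIs came from genes encoded in the mitochondrial genome, whose symbols begin with mt-. They were chosen by that mitochondrial share, a measured value, so the share itself is a description and not a finding. In all, 1784 of 8801 barcodes of that depth met the rule: 1263 of 4351 in the IgG library (29.0%, exact Clopper-Pearson 95% interval 27.7 to 30.4) and 521 of 4450 in the aPD-1 library (11.7%, 10.8 to 12.7). Single-cell RNA sequencing with the 10x Chromium 3′ chemistry had been run on tumour cells sorted by flow cytometry from MC38 cultures. MC38 is a mouse colon carcinoma line, here from tumours of C57BL/6 albino mice, dissociated and kept in collagen in a microfluidic chip. The cultures held a control antibody (IgG, clone 2A3) or an antibody that blocks PD-1, an inhibitory receptor of T cells (aPD-1, clone RMP1-14), each at 10 µg/mL until day 6, with 1 library per antibody. The labels name neither the markers of the sort nor the number of tumours or mice. With 1 library per antibody no test was possible, and all intervals below cover counting error only.

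A droplet barcode is usually read as a cell whose plasma membrane has given way when mitochondrial transcripts dominate it: cytoplasmic mRNA can leave through a ruptured membrane, while transcripts inside the mitochondria are held behind their own membranes. The nucleus is a separate compartment, and long non-coding RNAs such as Malat1 and Neat1, which stay in the nucleus, are commonly used as a sign that it is present. Membrane integrity was not measured in these files, so the barcodes are called mitochondria-rich below rather than damaged. A gene is called nuclear here when it is not one of the 13 mitochondrial genes. The mitochondria-rich barcodes are set against the reference barcodes of the same library, those of at least 500 UMIs and at most 10% mitochondrial UMIs, of which there were 2823 (IgG) and 3700 (aPD-1). The 265 and 229 barcodes between those limits belong to neither set.

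The libraries held 52720076 (IgG) and 68385785 (aPD-1) UMIs in all. The mitochondria-rich barcodes were shallow. Their median depth was 951 UMIs in IgG (500 to 3438) and 816 in aPD-1 (501 to 3312), against 17246 and 15649 in the reference. A median of 188 and 107 UMIs per barcode came from nuclear genes, against 16545 and 15045.5 in the reference, and the median mitochondrial share was 80.3% and 87.2%. Just outside the limit, 13 IgG and 7 aPD-1 barcodes lay between 45 and 50% with a median of 456 and 553 nuclear UMIs. Just inside it, 31 and 13 barcodes lay between 50 and 55% with a median of 394 and 473. The IgG file lists 4351 barcodes, none under 500 UMIs, and the aPD-1 file lists all 737280 possible barcodes, so only the aPD-1 file holds the shallow ones. Whether barcodes of 500 or more UMIs were left out of the IgG file is not known. The mitochondria-rich shares of 29.0% (IgG) and 11.7% (aPD-1) may therefore not be comparable. No mitochondria-rich barcode of one library was mitochondria-rich in the other. Of all barcodes of this depth the libraries shared 25, among them 7 that were mitochondria-rich in IgG and reference in aPD-1, and 2 the other way round. How many would be shared by chance was not computed, so these counts are a description. Doublets were neither called nor removed.

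**Figure D1:**
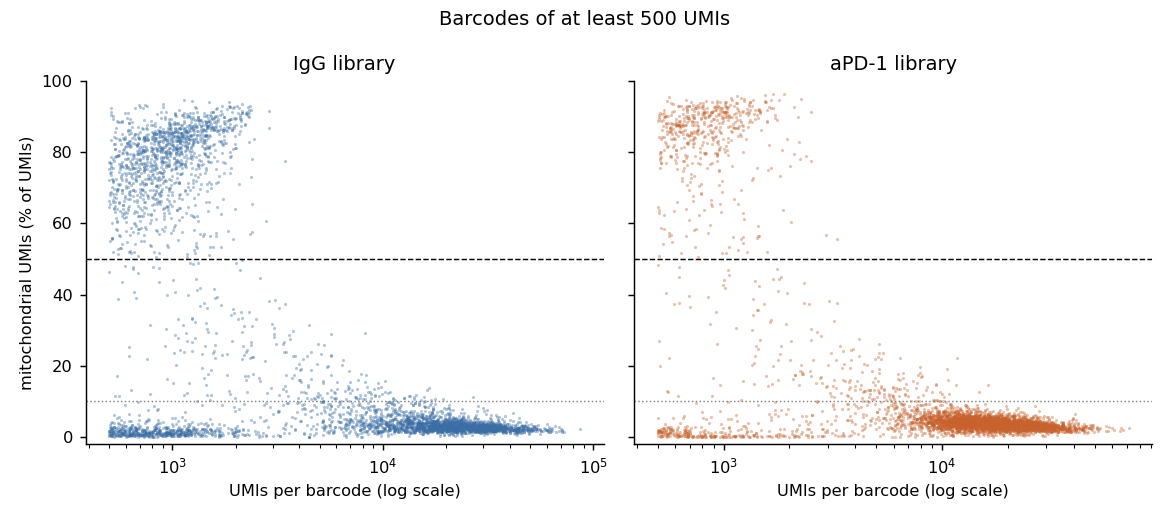
Each point is a barcode of at least 500 UMIs, with its UMIs on a log scale (x) and the percent of them that were mitochondrial (y), by library. Points above the dashed line at 50% are the 1263 and 521 mitochondria-rich barcodes, points below the dotted line at 10% are the reference.

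Few nuclear transcripts remained in a mitochondria-rich barcode. Per barcode, the mitochondria-rich set held 1.24% of the nuclear UMIs of the reference in IgG (214 against 17252) and 0.927% in aPD-1 (150 against 16167). Mitochondrial UMIs per barcode came to 155% of the reference in IgG (827 against 535) and 130% in aPD-1 (771 against 591). The rule selects for this contrast, which is therefore a description. In total the mitochondria-rich barcodes held 38.0% of all mitochondrial UMIs of the IgG barcodes and 0.542% of the nuclear ones, and 14.6% and 0.129% in aPD-1.

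Of the gene models that were higher in both libraries, 3 lie in or beside a ribosomal RNA locus. They are Gm42418 (chr17:39846958-39848788, plus strand), Gm26917 (chr17:39843013-39846341, plus) and AY036118 (chr17:39847113-39848035, minus), neighbouring lincRNA models in GENCODE M21 (GRCm38). Of the 1831 bases of the Gm42418 transcript, 1244 (67.9%) overlap an annotated transcript of CT010467.1, an rRNA gene on the opposite strand. The span of that gene (chr17:39846353-39848827) is longer than this transcript overlap and holds all of Gm42418. Gm26917 lies beside CT010467.1 and does not overlap it. AY036118 overlaps Gm42418 on the other strand, so reads of these models cannot be told apart unless strand was used in counting, and the labels do not say. The stretch below is chr17:39848122-39848241 of Gm42418, on the plus strand. Its 80 bases in capitals lie within that annotated rRNA transcript, whose boundary at the higher coordinate is position 39848201. The bases in lower case lie beyond that transcript but within the span of the rRNA gene. The stretch is shown because Gm42418 had the highest ratio of the unnamed gene models higher in both libraries. All unnamed gene models described here were chosen after their values were seen.

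Gm42418: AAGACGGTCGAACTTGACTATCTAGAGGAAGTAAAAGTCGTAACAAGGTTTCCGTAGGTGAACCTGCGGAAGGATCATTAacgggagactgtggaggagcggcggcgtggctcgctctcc

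Gm42418 held 6223 UMIs per 1000000 nuclear UMIs (nuclear CPM) in the mitochondria-rich IgG barcodes and 326 in the IgG reference, a 19.1-fold difference (interval 18.2 to 20.1, 1686 UMIs). In aPD-1 the levels were 4752 and 236 nuclear CPM, 20.1-fold (18.1 to 22.3, 371 UMIs). Averaged over barcodes, the mitochondria-rich set held 23.8% (IgG) and 18.6% (aPD-1) of the Gm42418 UMIs of the reference. These UMIs lay in 628 of the 1263 IgG and 178 of the 521 aPD-1 barcodes, and 3 IgG barcodes held 20.9% of them. Gm26917 was 13.2-fold (12.1 to 14.2) and 6.86-fold (5.49 to 8.47) higher, but 3 barcodes held 48.4% of its 665 UMIs in IgG. Without the 10 barcodes richest in Malat1, Gm42418 and Gm26917 together, a set chosen after seeing the data, its IgG log2 ratio was 2.65. With every barcode weighted equally the log2 ratio of Gm26917 was 0.63 in IgG and 1.18 in aPD-1, against 3.71 and 2.77, and that of Gm42418 was 2.85 and 3.28, against 4.25 and 4.32. AY036118 differed by 3.24-fold and 3.34-fold. The difference in Gm42418 was present in barcodes of equal depth too: with each barcode thinned to 200 nuclear UMIs, 49.7% of 561 mitochondria-rich IgG barcodes and 7.93% of 2823 reference barcodes held a Gm42418 UMI. In aPD-1 the shares were 52.7% of 91 and 5.86% of 3700. The thinning left out 702 of the 1263 IgG and 430 of the 521 aPD-1 mitochondria-rich barcodes, which were shallower. Without thinning, the shares were 49.7% (IgG) and 34.2% (aPD-1) in the mitochondria-rich and 85.1% and 86.9% in the far deeper reference barcodes. At 200 nuclear UMIs a barcode held a median of 160 genes in the mitochondria-rich IgG set and 162 in its reference, and 169 and 158 in aPD-1.

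Free RNA in the aPD-1 library was read from the 89441 barcodes of 10 to 100 UMIs (median 36 UMIs, 5.73% mitochondrial); the IgG file lists no such barcodes. Gm42418 stood at 714 nuclear CPM there, so the mitochondria-rich barcodes held 6.65-fold more (5.94 to 7.43). Ankrd11 and Lars2, described below, stood at 114 and 18.8 nuclear CPM in free RNA. Across 7239 tested genes, the nuclear profile of the mitochondria-rich aPD-1 barcodes had a Spearman correlation of 0.676 with free RNA and 0.726 with the reference, while free RNA and reference had 0.950. The IgG mitochondria-rich profile had 0.864 with its reference. These are correlations across genes of sets that differ in depth, given as a description.

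The size rule for calling a gene asked for 10 nuclear CPM or more, a ratio of at least 2-fold and an interval lying wholly beyond 1.5-fold. Of 7062 genes tested in IgG, 83 were higher (1.18%) and 34 lower (0.481%). Of 7239 in aPD-1, 297 were higher (4.1%) and 10 lower (0.138%). Across 6403 genes tested in both, 39 were higher in both (0.609%), 1 was lower in both (0.0156%), and none was called in opposite directions. Over all aPD-1 genes tested the log2 ratio had a median of 0.30, and after it was set to 0 the counts were 176 higher and 31 lower. In IgG the median was -0.05, with 92 higher and 29 lower after centring. A gene with no UMI in the mitochondria-rich barcodes could be called lower only from 20.5 nuclear CPM in the IgG reference and 70.9 in aPD-1, since 1 UMI stood for 3.69 and 12.8 nuclear CPM, levels that 5003 and 1760 of the tested genes reached. Among members over 75% mitochondrial, 40 genes were higher in IgG and 134 in aPD-1, and among members without a Malat1 UMI, a set chosen after seeing the data, 28 and 64. Among the higher genes, 30 of 83 (IgG) and 91 of 297 (aPD-1) were under 10 CPM in the reference and entered the test through the mitochondria-rich side.

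The named genes highest in both libraries were led by Lars2 (chr9:123366927-123462666), the nuclear gene of the mitochondrial leucyl-tRNA synthetase. It held 583 nuclear CPM against 11.6 in IgG (158 UMIs, 50.5-fold, 42.0 to 60.3) and 167 against 8.46 in aPD-1 (13 UMIs, 19.7-fold, 10.4 to 34.0). These UMIs were spread over 127 and 13 barcodes, at most 4 and 1 per barcode. In aPD-1 the reference level of Lars2 was under 10 CPM, so there it entered the comparison only through the mitochondria-rich side. Averaged over barcodes, the mitochondria-rich set held 62.7% of the Lars2 UMIs of the reference in IgG and 18.2% in aPD-1. None of the annotated Lars2 transcripts matched a mitochondrial transcript in a blastn search. That search covered 28326 genes and found 5 with a match, none of them called; introns and the genome sequence were not searched.

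Some of the other named genes act in chromatin or RNA processing. Ankrd11 (chr8:122883822-123042277), a chromatin regulator, stood at 1048 against 237 nuclear CPM in IgG (4.41-fold, 3.91 to 4.97) and 1358 against 254 in aPD-1 (5.35-fold, 4.37 to 6.47). Prpf38b (chr3:108902805-108911727), a pre-mRNA splicing factor, was 3.84-fold (IgG) and 4.72-fold (aPD-1) higher, and Rbm25, a splicing regulator, 3.30-fold and 5.56-fold. Zfc3h1, a cofactor of nuclear RNA decay, was 3.79-fold and 4.72-fold higher on 17 and 7 UMIs. The splicing kinase gene Clk1 differed by 2.93-fold and 3.50-fold. Snhg9, a long non-coding snoRNA host, was 4.33-fold and 4.43-fold higher. Hist2h2aa1, a histone H2A gene, was 5.75-fold and 12.5-fold higher on 11 and 5 UMIs, and near-identical histone copies make its count uncertain.

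Others act mainly outside the nucleus. Col7a1 (chr9:108953586-108984875), the collagen of anchoring fibrils, stood at 199 against 32.4 nuclear CPM in IgG (6.15-fold, 4.60 to 8.06) and 384 against 32.4 in aPD-1 (11.8-fold, 7.97 to 17). Flnc, an actin crosslinker, was 3.68-fold and 5.11-fold higher, and Map1b, a microtubule-binding protein, 3.50-fold and 3.47-fold. Adamts14, a procollagen protease, was 5.24-fold and 7.72-fold higher on only 6 and 4 UMIs. Cpne7, a copine (8.61-fold and 7.72-fold), Arhgef25, a guanine nucleotide exchange factor (5.21-fold and 7.03-fold), and Prkab2, a subunit of AMP-activated kinase (3.68-fold and 6.51-fold), rested on 4 to 12 UMIs per library. Cpne7, Arhgef25, Adamts14 and Hist2h2aa1 were under 10 CPM in both references and Prkab2 just above, so the first 4 entered the comparison only through the mitochondria-rich side. In members without a Malat1 UMI, Col7a1 stood at 2.2-fold (0.950 to 4.36, 8 UMIs) in IgG and 2.42-fold (0.292 to 8.74, 2 UMIs) in aPD-1, and Flnc at 1.49-fold and 1.04-fold on 4 and 1 UMIs, with intervals that include 1. Adamts14, Arhgef25 and Prkab2 had 0 or 1 UMIs there, where at most 1.35 would stand at the reference level, too few to give a direction. Mid1, an E3 ubiquitin ligase gene, was 3.68-fold and 6.37-fold higher. Its IgG log2 ratio was -0.51 when every barcode was weighted equally, so its direction turned with that choice, and near-identical sequence at the end of the X chromosome makes its count uncertain. The 39 genes higher in both had a median ratio of 3.31 in IgG and 5.05 in aPD-1. Among the rest of them, Thoc2, a subunit of the mRNA export complex, stood at 2.49-fold and 3.62-fold, Pds5b, a cohesin cofactor, at 2.58-fold and 3.85-fold, Arglu1, a splicing modulator, at 2.23-fold and 2.85-fold, and Nop56, a nucleolar protein, at 2.09-fold and 3.03-fold. These 4 were chosen after their values were seen and do not stand for the rest. Larger ratios were found in Tcirg1 (3.31-fold and 6.19-fold), Pet2 (3.16-fold and 7.54-fold) and Erdr1 (3.06-fold and 5.05-fold).

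**Figure D2:**
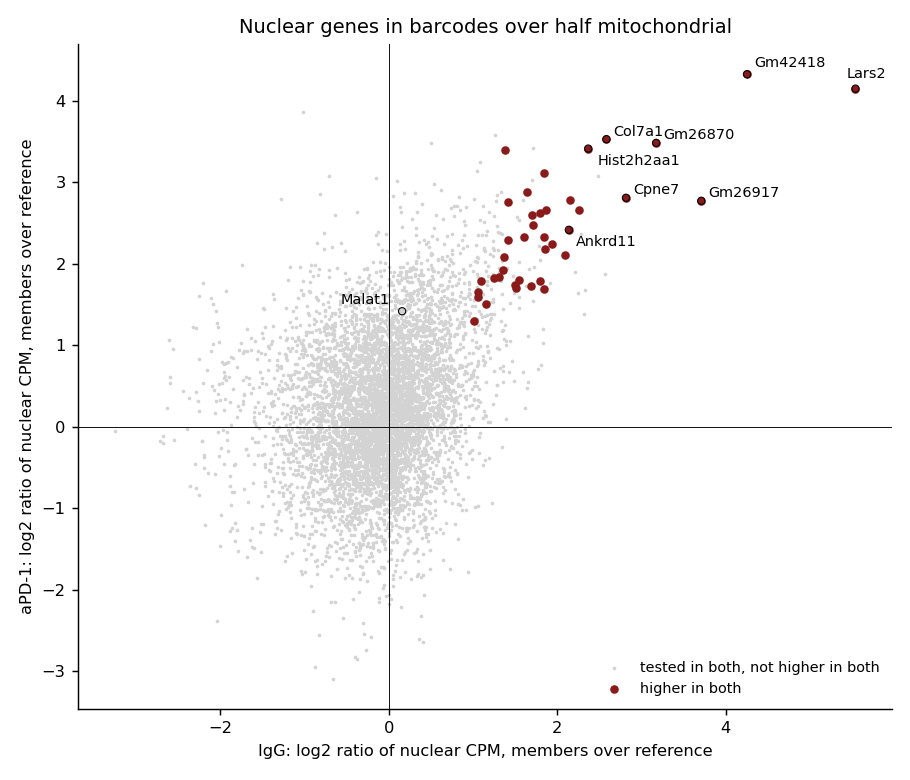
Each point is one of 6202 nuclear genes tested in both libraries with a UMI in both mitochondria-rich sets, at its log2 ratio of nuclear CPM over the reference in IgG (x) and aPD-1 (y). Dark points are the 39 genes higher in both; Lars2 and Gm42418 lie farthest to the upper right, and Malat1, labelled, is near 0 in IgG only.

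A further unnamed model, Gm26870 (chr9:3000282-3038313), was 10.0-fold (22 UMIs) and 13.9-fold (4 UMIs) higher. It stood at 8.11 (IgG) and 3.68 (aPD-1) nuclear CPM in the references. In both libraries it therefore entered the comparison only through the mitochondria-rich side. Its 1170-base transcript repeats itself with a shift of 234 bases, at which 81.5% of bases match. The first unit, as transcribed from the minus strand, is printed because reads of a repeat cannot be assigned to 1 copy, which makes its count uncertain. Among aPD-1 members without a Malat1 UMI it had 0 UMIs, and at the reference level 0.0938 would stand there.

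Gm26870: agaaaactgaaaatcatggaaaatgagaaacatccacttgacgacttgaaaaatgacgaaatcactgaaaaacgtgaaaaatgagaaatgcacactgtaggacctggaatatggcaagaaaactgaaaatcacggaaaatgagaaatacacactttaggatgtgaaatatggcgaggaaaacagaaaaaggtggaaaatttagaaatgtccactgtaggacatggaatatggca

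Malat1 (chr19:5795690-5802672), the abundant nuclear long non-coding RNA, was called higher in aPD-1 only. Its level was 11181 nuclear CPM against 10014 in the IgG reference (1.12-fold, 1.08 to 1.16, not called) and 23144 against 8675 in aPD-1 (2.67-fold, 2.55 to 2.79, higher). The value depended on which barcodes weighed most: the log2 ratio was 0.16 (IgG) and 1.42 (aPD-1), but -0.77 and 0.27 with every barcode weighted equally, and -0.73 and 0.50 in members over 75% mitochondrial, where Malat1 no longer reached the 2-fold needed for a call in aPD-1. Neat1, the scaffold RNA of nuclear paraspeckles, was 1.0-fold in IgG and 2.14-fold in aPD-1, where its log2 ratio was -0.086 with every barcode weighted equally. Kcnq1ot1, an imprinted antisense RNA, was 1.11-fold (not called) and 3.53-fold (higher). Airn, another imprinted antisense RNA, was 6.36-fold in IgG (3.8 to 10.0, 19 UMIs, higher) and 3.87-fold in aPD-1 (4 UMIs, not called). The difference between the libraries was not tested. Malat1 was unevenly spread: 49.4% of the IgG and 51.1% of the aPD-1 mitochondria-rich barcodes had no Malat1 UMI, while 63 and 43 barcodes with 10 or more held 51.2% and 69.2% of all its UMIs. The latter had a median mitochondrial share of 65.3% and 62.9%, against 82.7% and 89.7% in the barcodes with none. Without the 10 richest barcodes the log2 ratio of Malat1 was -0.19 in IgG and 0.98 in aPD-1, and that of Gm42418 was 3.82 and 4.24.

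Malat1 followed the mitochondrial share. It was highest in the barcodes of 25 to 50%, at 67794 nuclear CPM in IgG and 73763 in aPD-1, and stood at 27365 and 48715 in those of 50 to 60%. Above 90% it was at 2819 (1873 to 4074) and 5547 (4316 to 7020), below both reference levels, while free RNA in aPD-1 held 3631. Ankrd11 did not show this course: its level lay between 705 and 1204 in the IgG groups over 50%, and between 965 and 1882 in aPD-1, all above the reference. Gm42418 was between 3423 and 17243 in IgG and between 3939 and 6212 in aPD-1 over the same groups. Like Malat1, it was also high below the limit, at 16178 (IgG) and 8438 (aPD-1) in the barcodes of 25 to 50%. In the few barcodes between 45 and 50% it stood at 64124 and 2006. Ankrd11 was above the reference below the limit too. It stood at 787 (IgG) and 1066 (aPD-1) in the barcodes of 25 to 50%, and at 411 and 465 in those of 10 to 25%, against 237 and 254. Lars2 stood at 359 (41 UMIs) and 34.4 (2 UMIs) at 25 to 50%. The share of nuclear UMIs from cytoplasmic ribosomal protein genes ran the other way from Malat1. It went from 30.6% to 41.3% in IgG and from 20.8% to 41.8% in aPD-1 between the groups of 50 to 60% and over 90%. Free RNA in aPD-1 held 40.7%. Of the mitochondria-rich barcodes, 68.8% in IgG and 85.2% in aPD-1 were over 75% mitochondrial, and the part of this in the difference between the libraries was not tested.

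**Figure D3:**
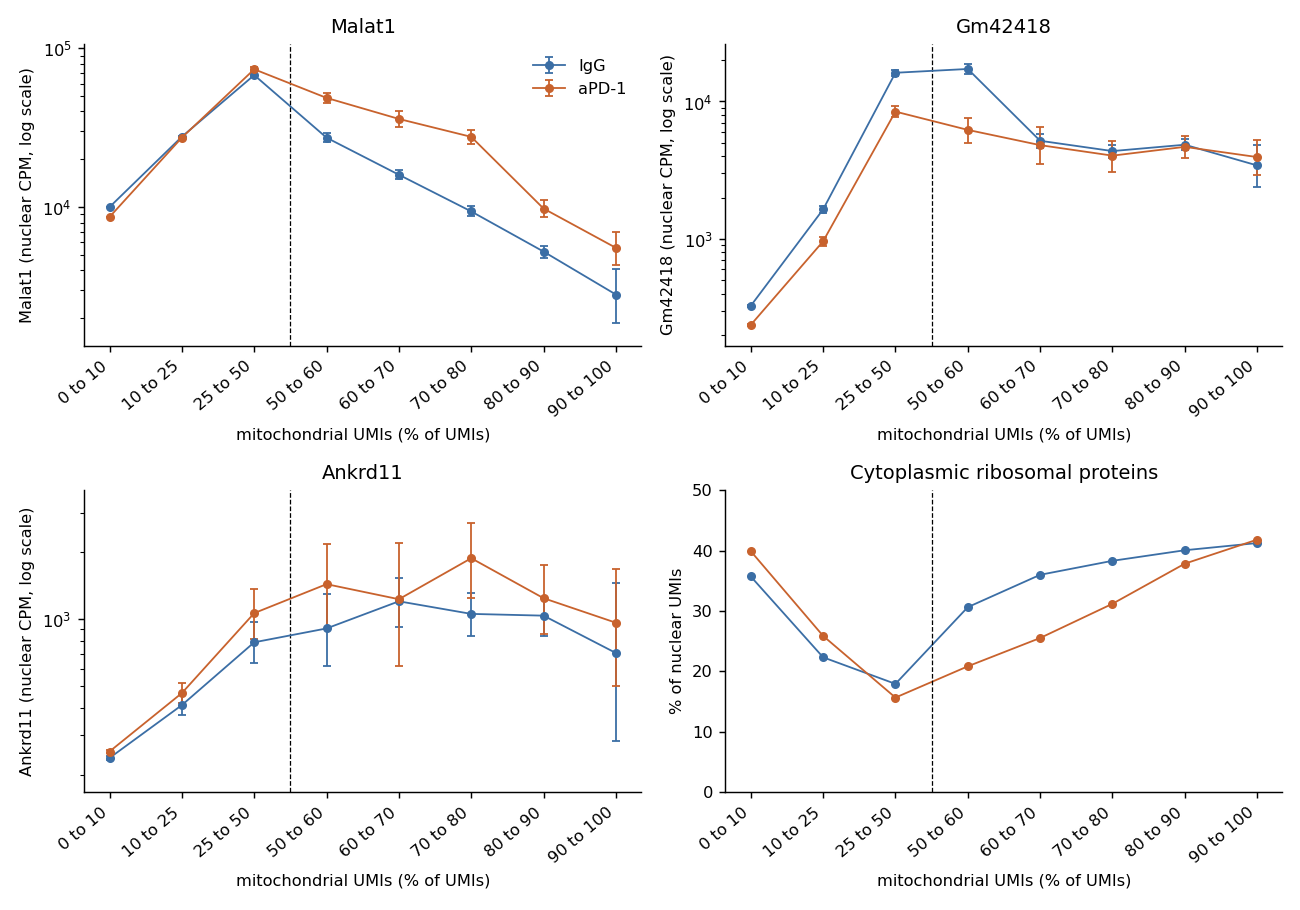
Nuclear CPM of Malat1, Gm42418 and Ankrd11 (log scale, bars are exact Poisson 95% intervals) and the percent of nuclear UMIs from ribosomal protein genes, in barcodes grouped by mitochondrial share (x). The dashed line marks 50%; Malat1 falls from left to right beyond it while the ribosomal protein share rises from 30.6% and 20.8% to 41.3% and 41.8%.

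The gene lists were measured by the summed UMIs of their genes, and their medians stand beside those over all tested genes (-0.05 in IgG, 0.30 in aPD-1). The counts of called members are to be read against 1.18% higher and 0.481% lower over all IgG genes and 4.1% and 0.138% over all aPD-1 genes, shares at which most lists of this size would hold few calls or none. Nuclear lamina and splicing genes, whose products act in the nucleus, had a summed ratio of 1.11 (1.07 to 1.16) in IgG, with 2 of 36 tested members higher and a median log2 ratio of 0.07. In aPD-1 it was 1.57 (1.47 to 1.67), with 10 of 35 higher, none lower and a median log2 ratio of 0.70. Among them Pnisr stood at 1.96-fold (not called) and 2.64-fold, and Rbm39 at 0.520-fold and 0.985-fold, both uncalled. In barcodes without a Malat1 UMI the summed ratio was 0.927 in IgG and 0.947 in aPD-1. Nuclear-retained long non-coding RNAs, a list led by Malat1, had summed ratios of 1.12 and 2.65. Without the 10 richest barcodes these were 0.884 and 1.97, so the direction in IgG rested on 10 barcodes.

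In summed UMIs, genes of the translation machinery were near the reference level in IgG and below it in aPD-1. The cytoplasmic ribosomal protein genes had a median log2 ratio of 0.04 in IgG and -0.31 in aPD-1. Over all tested genes it was -0.05 and 0.30. Of 82 tested cytoplasmic ribosomal protein genes none was called in either library, with a summed ratio of 1.05 (1.05 to 1.06) in IgG and 0.814 (0.804 to 0.824) in aPD-1, where it was 1.02 in members without a Malat1 UMI. Rpl21 stood at 1.34-fold and 1.21-fold. Translation factors had summed ratios of 0.946 and 0.820, and none of 36 was called. The nuclear-encoded respiratory chain, made in the cytosol and imported into mitochondria, had 1.03 (1.01 to 1.05) and 0.889 (0.849 to 0.931), with none of 78 and 77 called; in aPD-1 members without a Malat1 UMI it had 1.11. The nuclear genes of mitochondrial ribosomal proteins had 0.995 and 0.901, those of mitochondrial import 0.986 and 0.913, and those of mitochondrial genome expression 1.01 and 0.983, also with none called. Without a Malat1 UMI, aPD-1 members had 1.01 for mitochondrial ribosomal proteins and 1.09 for import.

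Immediate early genes, which are switched on within minutes of a stimulus, had the lowest summed ratio of the lists in IgG, 0.682 (0.652 to 0.713), and 0.890 (0.820 to 0.963) in aPD-1. Their median log2 ratio was -0.58 and -0.13. Of 27 tested members 1 was lower in IgG, Klf4, a transcription factor gene, at 0.430-fold, and none of 26 in aPD-1. Jund stood at 0.620-fold and 0.528-fold, and Zfp36, which promotes mRNA decay, at 0.487-fold and 0.552-fold, neither called. Hypoxia genes had 0.787 (0.723 to 0.856) in IgG and 1.0 in aPD-1, with none called. Heat shock chaperones had 0.897 and 0.927, although Hspa1b, an inducible heat shock protein, was higher in both (2.39-fold and 3.61-fold). This gene has a near-identical copy in Hspa1a, so its count is uncertain. Hsph1, a co-chaperone, was at 1.27-fold (not called) and 4.31-fold (higher). Genes of the extracellular matrix and secreted proteins had 1.02 in IgG and 1.42 (1.31 to 1.54) in aPD-1, with 2 of 34 and 3 of 32 higher, among them Ecm1, a secreted glycoprotein, at 2.71-fold and 6.92-fold. MHC class I presentation genes had 1.08 and 1.27, and H2-K1, a class I heavy chain, stood at 1.43-fold (not called) and 2.03-fold (higher). Type I interferon genes had 0.883 and 1.03, with 2 of 28 higher in aPD-1 (4.1% of all genes), Usp18, a deubiquitinase of ISG15 (3.47-fold, 10 UMIs), and Cmpk2, a mitochondrial nucleotide kinase (4.93-fold, 8 UMIs). Cytoskeleton genes had 0.929 (0.903 to 0.957) in IgG, with none called, and 1.02 in aPD-1, with 2 of 31 higher (4.1% of all genes). These were Myh9, a non-muscle myosin, and Cald1, an actin-binding protein (2.57-fold and 2.61-fold). Replication histones had 0.899 and 0.582, and Hist1h2ap was lower in aPD-1 (0.127-fold, 3 UMIs). S phase genes had 1.02 and 1.15 and G2 and mitosis genes 0.932 and 1.03, with none called. No member was called either among genes of glycolysis (0.935 and 1.01), ER chaperones (1.01 and 1.15), the ATF4 stress response (0.948 and 1.07), p53 targets (0.888 and 1.06) and snoRNA hosts (0.907 and 0.793).

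**Figure D4:**
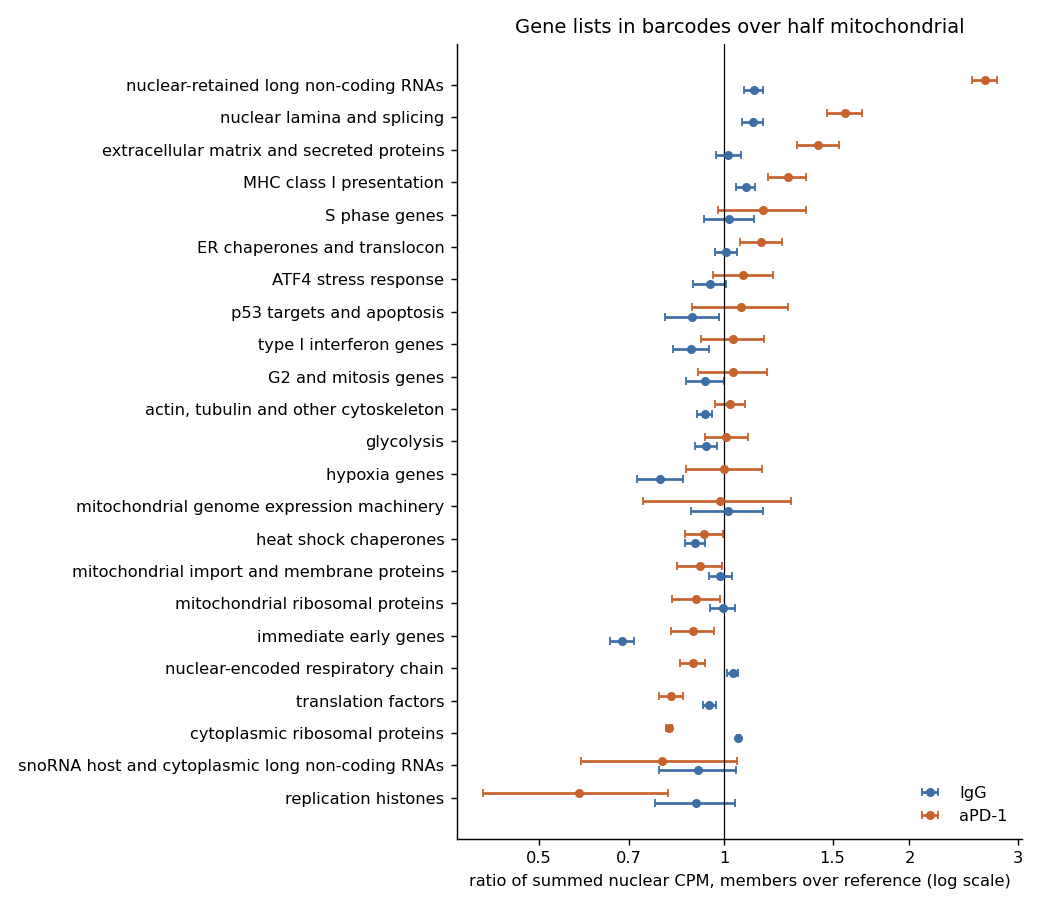
Ratio of summed nuclear CPM, mitochondria-rich over reference barcodes, for 23 gene lists (points, log scale; bars are exact conditional binomial 95% intervals). Nuclear-retained long non-coding RNAs lie at 2.65 in aPD-1 and 1.12 in IgG, and immediate early genes at 0.890 and 0.682.

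Only 1 gene was lower in both libraries. Asap1, which regulates Arf GTPases and the actin cytoskeleton, had 5 UMIs in the mitochondria-rich IgG barcodes (18.5 against 81.1 nuclear CPM, 0.227-fold) and 0 in aPD-1, where the reference held 85.0 nuclear CPM. A count of 0 sets a floor of 3 UMIs over the group, so the gene was at least 2.21-fold lower there. Of the 34 genes lower in IgG, 20 had a ratio below 1 in aPD-1. Among those 20, Gnai2, a G protein subunit, stood at 0.268-fold on 22 UMIs in IgG and 0.411-fold on 8 UMIs in aPD-1, where it was not called. Of the 10 lower in aPD-1, Ybx1, an RNA-binding protein, had the most UMIs, 46, at 0.449-fold, and 0.681-fold in IgG (not called). Both were chosen after their values were seen.

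Long transcripts had higher ratios in aPD-1. Across 7230 aPD-1 genes with a length, the Spearman correlation with the log2 ratio was 0.295, and it was 0.0164 across 7052 in IgG; these are across genes, which are not independent replicates. In aPD-1 the summed ratio ran from 0.844 in the fifth of genes with the shortest transcripts to 1.66 in the fifth with the longest, and 8.60% of the longest were higher against 1.10% of the shortest. In IgG the summed ratios of the same 5 groups lay between 0.975 and 1.01. Genes whose protein begins with a hydrophobic stretch, a feature of proteins made at the endoplasmic reticulum, had a summed ratio of 0.996 (0.981 to 1.01) in IgG and 1.24 (1.21 to 1.27) in aPD-1, against 0.996 and 0.972 for the others. Ribosomal protein genes weigh heavily in the others: without them these had 0.957 in IgG and 1.10 in aPD-1. Their median log2 ratio was lower than that of the others by 0.02 in IgG and higher by 0.09 in aPD-1, where the difference was -0.016 with no minimum CPM.

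Among the mitochondrial transcripts themselves, the rule used only the sum, and their proportions are given as a description. mt-Nd1, a subunit of complex I, made up 10.3% of mitochondrial UMIs in the mitochondria-rich IgG barcodes against 7.76% in the reference (1.33-fold, 1.32 to 1.34), and 10.2% against 7.60% in aPD-1 (1.34-fold). mt-Co1, the catalytic subunit of complex IV, held 18.3% against 23.3% in IgG and 19.7% against 24.4% in aPD-1. mt-Atp8, of the ATP synthase, held 0.137% against 0.206% in IgG (0.665-fold) and 0.0585% against 0.107% in aPD-1 (0.549-fold). mt-Atp6, with the most UMIs, was at 29.5% against 29.0% and 30.5% against 29.7%. mt-Co2, mt-Co3 and mt-Cytb were between 1.07-fold and 1.11-fold, and mt-Nd2, mt-Nd4, mt-Nd4l and mt-Nd5 between 0.813-fold and 0.947-fold. mt-Nd3 was at 1.01-fold and 0.871-fold, and mt-Nd6, on the opposite strand, at 1.11-fold and 1.12-fold with intervals that include 1. Free RNA in aPD-1 held 9.06% mt-Nd1 and 20.3% mt-Co1, between the 2 sets.

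**Figure D5:**
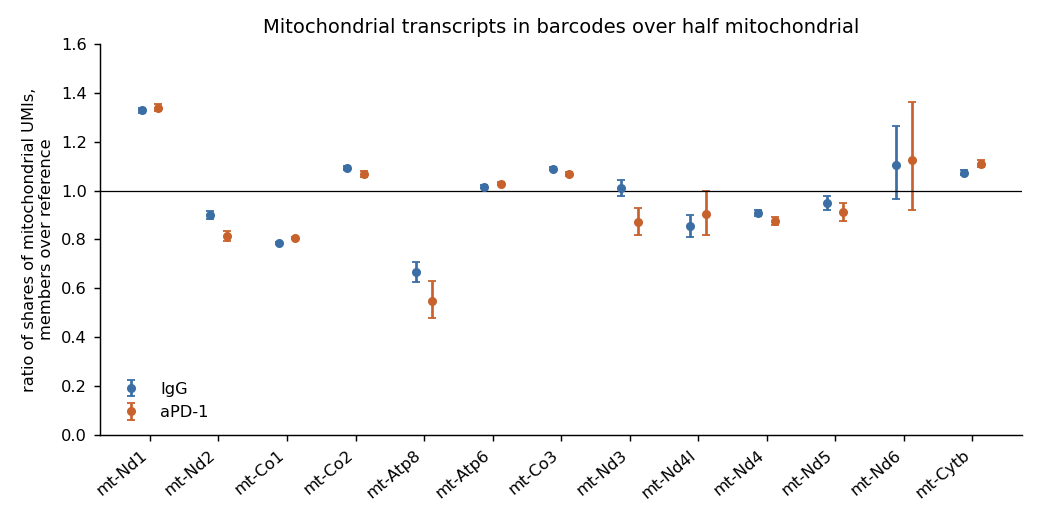
Share of each mitochondrial transcript among all mitochondrial UMIs, as a ratio of mitochondria-rich over reference barcodes, with exact conditional binomial 95% intervals (y). mt-Nd1 lies at 1.33 and 1.34 and mt-Co1 at 0.784 and 0.806 in IgG and aPD-1.

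Markers of other cell types were rare. Both sets were also compared without barcodes of 3 or more macrophage or endothelial marker UMIs. In IgG 92 genes were then higher and 35 lower, against 83 and 34. The part of the other markers in the results was not tested. Of the 17 macrophage or monocyte markers, 51 UMIs were found in the IgG mitochondria-rich barcodes (188 nuclear CPM, 316 in the reference) and 18 in aPD-1 (231 against 40.9), and 4 and 1 barcodes held 3 or more. Free RNA in aPD-1 held 341 nuclear CPM of these markers, more than the mitochondria-rich barcodes. None of 9 tested markers was called in IgG. In aPD-1, 3 of 7 were higher (4.1% of all genes), C1qc, Apoe and Aif1, on 2 or 3 UMIs each. Pf4, a platelet marker, was also higher there, on 3 UMIs. All 7 and Pf4 were under 10 CPM in the aPD-1 reference. They entered the comparison only through the mitochondria-rich side, so these calls give no support for a cell type. T cell markers had 2 and 0 UMIs, NK cell markers 3 and 0, and mast cell markers 0 in both; a count of 0 allows up to 3 UMIs. Erythroid markers had 88 UMIs in IgG (325 against 239 nuclear CPM) and 0 in aPD-1, neutrophil markers 46 and 5, endothelial markers 35 and 7, pericyte markers 7 and 0, B cell markers 5 and 2, dendritic cell markers 5 and 0, and platelet markers 6 and 4. The 14 epithelial markers had 1 and 0 UMIs, and in the reference only 1.46 and 0.819 nuclear CPM, so the labelled colon carcinoma was not visible in epithelial genes in either set. Fibroblast markers, many of which are matrix genes that MC38 cells may also express, stood at 1244 nuclear CPM in IgG (1285 in the reference) and 1242 in aPD-1 (919).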

How the data were processed

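Per the file headers, Cell Ranger 3.0.2 made the deposited matrices, whose values are unnormalised UMI counts for each gene in each barcode. The submitters' processing notes name Cell Ranger, Seurat 2.1.0 and the mm10 build, and no gene annotation is named there. Both matrices list 28692 genes, 13 of them mitochondrial. Members and gene lists were chosen with earlier results of these data known.

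UMIs were summed per library over the mitochondria-rich and the reference barcodes (270911 and 78078 nuclear UMIs in the former), scaled to 1000000 nuclear UMIs, and compared by exact conditional binomial intervals, with no test. Log2 ratios carry a pseudocount of 1 CPM, which understates differences of low genes. Genes named are up to 15 higher and 15 lower in both libraries, ordered by the smaller log2 ratio and without ribosomal, haemoglobin or unnamed models, up to 3 at each end of a described list, the mitochondrial genes and detected markers. Of 998 listed symbols, 18 did not match. Transcript length, coordinates and sequences come from GENCODE M21. Hydropathy (12-residue windows of the first 40 residues, mean of at least 2) was planned on RefSeq proteins and computed from translated GENCODE coding sequences instead, because no protein table was used here. Software was Python 3.11.15, numpy 2.4.6, scipy 1.17.1, pandas 2.3.3 and blastn 2.17.0. The comparison was tried on simulated independent counts, in which only genes well above the 10 CPM minimum were changed. That trial does not cover low genes or UMIs gathered in a few barcodes.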

Additional observations from a re-analysis of the deposited data

Results flagged for a closer look

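The 2 gene lists below differed in opposite directions from the reference in the 2 libraries, with both intervals on opposite sides of 1; with 1 library per antibody the difference was not tested. The cytoplasmic ribosomal protein genes had a summed ratio of 1.05 in IgG and 0.814 in aPD-1. The nuclear-encoded respiratory chain genes had 1.03 in IgG and 0.889 in aPD-1.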

How the results depend on the processing

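No paired analysis was possible because each antibody has 1 library. With a floor of 1000 UMIs the members numbered 569 (IgG) and 159 (aPD-1), while limits of 40, 60 and 75% kept both counts within 1.5 times. Genes higher in IgG numbered 40 with members over 75% mitochondrial, 39 at a minimum of 50 CPM, 139 with none, and, in alternatives chosen after seeing the data, 53 at 10 CPM in the reference and 28 in members without Malat1. Those higher in aPD-1 numbered 134 over 75%, 176 centred, 174 at 50 CPM and 64 without Malat1. Genes lower in IgG numbered 16 at the 1000 floor, 217 with equal weights (whose intervals are not counting intervals), 79 thinned and 13 at 50 CPM, and in aPD-1 25 with equal weights, 31 centred, 24 without ribosomal proteins in the denominator and 6 at 50 CPM. The hydrophobic difference in IgG was -0.0882 over 75%, -0.0937 with equal weights and -0.0906 thinned, and in aPD-1 0.21 without Malat1. The cause was not tested for any of these.

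Called genes, and lists whose interval excluded 1, moved to the other side of the reference as follows. Over 75% in IgG, the nuclear-retained RNAs stood at 0.608 and MHC class I at 0.974, and in aPD-1 mitochondrial ribosomal proteins at 1.01, the respiratory chain at 1.01 and import proteins at 1.04. With equal weights in IgG, nuclear-retained RNAs stood at 0.593, glycolysis at 1.02, heat shock at 1.01, mitosis genes at 1.07, MHC class I at 0.940 and Mid1 at a log2 ratio of -0.51; in aPD-1, the respiratory chain at 1.03, import proteins at 1.08, heat shock at 1.03 and Neat1 at -0.086. Thinned in IgG, nuclear-retained RNAs stood at 0.825, mitosis genes at 1.20 and Mid1 at -0.37, and in aPD-1 Adamts14 at -2.34. Centring put ER chaperones at 0.936 in aPD-1. In IgG members without Malat1, glycolysis stood at 1.01, lamina and splicing at 0.927, MHC class I at 0.988, Adamts14 at -2.39 and Prkab2 at -0.39. In aPD-1 members without Malat1, ribosomal proteins stood at 1.02, mitochondrial ribosomal proteins at 1.01, the respiratory chain at 1.11, import proteins at 1.09, lamina and splicing at 0.947 and Neat1 at -1.09. Arhgef25 at -3.05, Adamts14 at -2.93, Prkab2 at -3.89 and Gm26870 at -2.23 had 0 UMIs in that set of 25504 nuclear UMIs, as had Adamts14 in IgG, so these values are set by the pseudocount and show no direction. Without the 10 richest barcodes nuclear-retained RNAs in IgG stood at 0.884. These are 25 of 502 recomputed list values and 11 of 658 gene values. With values included that were uncalled or had an interval around 1, 79 list values and 22 gene values lay on the other side, among them Malat1 in IgG (-0.77 with equal weights) and extracellular matrix genes in IgG (0.906 over 75%). List sums were not recomputed for minimum or pseudocount, which do not enter them. Lars2, Ankrd11, Gm42418, Prpf38b and Rbm25 stayed above 0 on the log2 scale under every alternative. So did Snhg9, Map1b, Col7a1, Cpne7, Hist2h2aa1, Zfc3h1, Flnc, Gm26917 and AY036118, although Flnc and AY036118 came down to 0.058 and 0.096 in aPD-1.

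With 78078 nuclear UMIs in the aPD-1 mitochondria-rich barcodes against 270911 in IgG, a lower gene was less detectable in aPD-1. With 1 library per antibody the antibody and the library cannot be told apart.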
